A study of Mus musculus with 12 samples.

Results

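Of 51691 catalogue probes on a mouse expression array, 16 had similar signals in colorectal tissue at both time points before dextran sulfate sodium (DSS) was given and higher signals both after the first DSS course and in tumour tissue. They were selected on the deposited log2 values themselves, by the following thresholds. The 1-week mean lay within 0.5 of the 0-week mean, the 2-week and 10-week means were each at least 1.5 above both of these, and every 2-week and 10-week array lay above every 0-week and 1-week array. In addition, the 10-week mean lay within 1 of the 2-week mean, and the 2-week mean was at least 6. The differences between time points below therefore restate the selection and carry no test. A catalogue probe is one whose ID starts with the array maker's prefix. The same array held 93857 custom probes, none of which passed the same thresholds. Only 10399 of the custom probes had a 2-week mean of at least 6, against 21293 of the 51691 catalogue probes.

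The tissue came from male C57BL/6 mice in the azoxymethane (AOM) and DSS model of colon cancer, with 3 arrays at each of 4 time points. At 0 weeks the mice were untreated, and at 1 week they had received only AOM, injected once at 10 mg/kg. At 2 weeks they had also drunk 2% DSS for 7 days from day 7 onward, and at 10 weeks, after AOM and a schedule of 3 DSS cycles with 14 days of plain water in each, the tissue is labelled as tumour. The labels call both the 1-week and the 2-week tissue colitis, and they leave unstated how many animals stand behind the 3 arrays, so p-values measure only the spread between these arrays, which may be technical. No group received AOM without DSS beyond 1 week, so the effect of DSS and the time since AOM cannot be told apart, and no tissue was measured between 2 and 10 weeks.

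AOM is a carcinogen that alkylates DNA, mainly in the colon. DSS is a sulfated polysaccharide that damages the colonic epithelium, lets luminal bacteria reach the mucosa, and brings in neutrophils and other immune cells while the crypts regenerate. Repeated rounds of injury after AOM lead to tumours in the distal colon, where inflammatory and wound-repair transcripts are known to be expressed alongside those of the transformed epithelium. In RNA from whole tissue, more cells of a type and more RNA per cell cannot be told apart.

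The gene and description fields of the files repeat the probe ID or read as unknown for all 145548 probes, so each member is identified here by its probe ID, and most also by part of their sequence. Each probe has 60 bases and was spotted once per array. The following members are shown with 30 of their bases, 5′ to 3′, and their positions in the genome were not determined here. The remaining members, A_52_P415116, A_51_P312485 and A_55_P2111302, are given by ID only. Capitals mark a polyadenylation hexamer (AATAAA, or its common variant ATTAAA), the signal that directs cleavage near the 3′ end of a messenger RNA.
A_55_P1998471: gtctaaagggaatggcttactcaatggcct
A_51_P256827: cttgttcagagaattggacatcaatagtga
A_52_P259402: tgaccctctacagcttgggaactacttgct
A_51_P391955: tctggagaaggctgctccaatgaagagggc
A_55_P2006261: atcagtgtggaggaatcagtggatggaaaa
A_51_P263568: aggtgtctacatccgtgtgacttctcatca
A_51_P460613: gctgacgtggaccaagatgggaaggtgaaa
A_55_P1979508: aaggagttcaagtatacgtgtccacacagc
A_51_P499698: ttggtggcctaaagcagtgtccccaaggtc
A_51_P398971: atgatcacaggtgcctgcagaagcatatgg
A_55_P2059010: tgaagcgaccccAATAAAagtgatctctgt
A_51_P267783: tcttcctcacttcctacattatttATTAAA
A_55_P2096422: gtcctcacctttagtttatttAATAAAtcc

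The first 10 stretches are bases 1 to 30 of their probes. That of A_55_P2059010 runs from base 29 to base 58, and those of A_51_P267783 and A_55_P2096422 from base 31 to base 60. The hexamer ended 14 bases before the 3′ end of probe A_55_P2059010, 3 bases before that of A_55_P2096422 and at the last base of A_51_P267783. Read on the strand of the probe, 3 of the 16 members (18.8%) held AATAAA or ATTAAA, against 14.0% of all 51691 catalogue probes. On the other strand the hexamers were found in 2 members (12.5%) and in 6.53% of catalogue probes. The GC content of the members was 35.0% to 55.0% with a median of 45.0%, against a median of 41.7% for the catalogue and of 45.0% for the 33184 catalogue probes that were bright enough to be tested (called well above background by the scanner software 3 times or more among the 12 arrays). By ID prefix, 8 members began with A_51, 2 with A_52 and 6 with A_55, series that make up 18.7%, 17.5% and 48.4% of the catalogue.

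The members did not measure the same stretch of RNA more than once. The longest run of bases that any member shared with any of the other probes on the array, on either strand, was 17. None of the members lay in a promoter window or miRNA hairpin of the RefSeq tables (GRCm38.p6), where the longest shared run was also 17 bases in 32851 windows and 1005 hairpins. How many genes the 16 probes represent was therefore not settled by sequence.

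The members fell into a dark and a lit class by their signal before DSS. A spot counts as detected when the scanner software called it well above background. At 0 weeks 9 members were detected on none of the 3 arrays and 7 on all of them. At 1 week 8 were detected on none, 1 on some and 7 on all arrays, at 2 weeks 15 on all and 1 on some, and at 10 weeks all 16 on every array. For a member not detected in a group, the log2 value there is only a bound. Its folds are given as approximate lower bounds from the scaled scanner signal. Each sets the mean of the bright group against the higher of the dim signal and the lowest signal of any detected probe per array. An undetected spot can lie above that lowest signal. For A_51_P312485 at 2 weeks against 0 weeks, the bound therefore equalled the plain fold, 14.2. A fold given as "at least" below describes group means and takes no account of the spread between arrays, so it is not a strict minimum.

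The largest differences belonged to 3 members with almost no signal before DSS. Probe A_55_P1998471 had log2 values of 1.46, 1.56 and 1.63 at 0 weeks and 1.67, 1.48 and 2.65 at 1 week, then 10.43, 9.92 and 9.78 at 2 weeks and 9.42, 9.66 and 11.15 at 10 weeks, each in the order of the labelled replicates. Its means were 10.04 ± 0.35 (SD, n = 3) at 2 weeks and 10.08 ± 0.94 at 10 weeks. As the selection required, the late arrays did not overlap the early ones, none of which detected the probe. Its signal was at least 94.6-fold higher at 2 weeks and at least 91.5-fold higher at 10 weeks than at 0 weeks. Without scaling, its processed signal was 2.65 to 2.90 at 0 weeks, where the spot was not well above background, and 681 to 2190 at 10 weeks. The values 2.65 and 2.90 were surrogates that the scanner software put in place of a measured signal. The early values of A_51_P256827, A_52_P259402 and A_52_P415116 were also all or mostly surrogates. Their closeness therefore does not measure the spread between arrays.

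Probe A_51_P256827 had values of 1.44, 1.45 and 1.46 at 0 weeks and 1.42, 1.37 and 1.55 at 1 week. They were 8.97, 8.50 and 8.12 at 2 weeks and 7.92, 8.34 and 10.10 at 10 weeks. As the selection required, neither late group overlapped an early group, in which no array detected the probe. The 2 late groups overlapped each other. Its signal was at least 32.6-fold higher at 2 weeks and at least 39.2-fold higher at 10 weeks than at 0 weeks. Probe A_52_P259402 likewise went from 1.5, 1.49 and 1.48 at 0 weeks, and 1.43, 1.37 and 1.37 at 1 week, to 8.97, 8.14 and 8.56 at 2 weeks. At 10 weeks its arrays read 5.47, 8.09 and 9.68, a spread of 4.21 log2 units around a mean of 7.74 ± 2.13 (SD, n = 3). The first 10-week array thus lay below every 2-week array and the third above every one, although the 10-week mean minus the 2-week mean was only -0.81.

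A second set of dark members had smaller differences and a wide spread at 10 weeks. Probe A_51_P391955 read 2.40, 3.20 and 2.86 at 0 weeks, 3.14, 3.29 and 1.76 at 1 week, 7.22, 7.94 and 7.50 at 2 weeks, then 5.70, 6.49 and 9.76 at 10 weeks. Probe A_55_P2006261 read 3.79, 2.14 and 2.39, then 2.09, 4.04 and 2.17, then 7.54, 6.65 and 8.38, and finally 5.33, 5.82 and 9.38 at the same times. Probe A_51_P263568 read 3.49, 1.62 and 3.46, then 2.58, 1.93 and 3.34, then 7.77, 6.77 and 7.73, and finally 4.32, 5.88 and 9.16. In these 3 members the 2-week arrays had SDs of 0.36, 0.87 and 0.57, and the 10-week arrays were spread over more than 4 log2 units. Against 0 weeks their bounds were at least 15.9-fold, 15.6-fold and 14.5-fold at 2 weeks and at least 15.2-fold, 11.1-fold and 8.72-fold at 10 weeks.

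Probe A_52_P415116 had another order of arrays at 10 weeks. Its values were 1.68, 1.63 and 1.74 at 0 weeks, 1.97, 1.35 and 1.40 at 1 week, 6.41, 6.39 and 6.00 at 2 weeks, then 6.21, 6.85 and 5.42 at 10 weeks, so that the third 10-week array was the lowest and not the highest. It was at least 6.13-fold higher at 2 weeks and at least 7.14-fold higher at 10 weeks than at 0 weeks. Probe A_51_P312485, detected on 1 array at 1 week, showed the same order of the 10-week arrays, with 3.93, 3.77 and 4.10 at 0 weeks, 3.91, 4.95 and 4.21 at 1 week, 7.87, 7.66 and 7.39 at 2 weeks, then 6.70, 7.27 and 6.01 at 10 weeks. All of its 10-week arrays lay below all of its 2-week arrays, and its 10-week mean, 0.98 below the 2-week mean, was almost at the limit that the selection set.

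Probe A_51_P460613 was the dark member with the least separation. It read 4.19, 3.84 and 3.38 at 0 weeks, 3.18, 3.49 and 3.98 at 1 week, 6.02, 9.06 and 4.31 at 2 weeks, then 4.35, 4.44 and 8.02 at 10 weeks. In each late group 1 array lay well above the other 2, the second at 2 weeks and the third at 10 weeks. The lowest late array lay only 0.12 above the highest early one. At 2 weeks it was detected on 2 of 3 arrays. The bound for its 10-week mean against 0 weeks was 4.33-fold, and none is given for 2 weeks, where 1 array did not detect it. That 10-week mean rested largely on the third array. Without scaling, the processed signal was 27.2, 29.1 and 278 at 10 weeks, against 14.2, 12.2 and 8.17 at 0 weeks. The bound is thus not a minimum for each array.

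The 7 lit members were detected on all 12 arrays, and most of them differed less than most dark members. Probe A_51_P499698 had the largest difference among the lit members. It went from 5.28, 4.56 and 4.53 at 0 weeks and 4.89, 4.92 and 4.04 at 1 week to 8.30, 10.13 and 7.10 at 2 weeks and 9.0, 9.98 and 9.11 at 10 weeks. In the scaled scanner signal this was a 14.4-fold difference at 2 weeks and 26.0-fold at 10 weeks against 0 weeks. Here the 2-week arrays were the scattered ones, with an SD of 1.52 against 0.53 at 10 weeks.

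Lit probe A_51_P398971 had a small spread within each group, with 8.90, 9.05 and 9.25 at 0 weeks, 9.35, 9.31 and 9.49 at 1 week, 11.09, 11.07 and 11.41 at 2 weeks, then 11.92, 11.96 and 11.52 at 10 weeks. Every 10-week array lay above every 2-week array, and its signal relative to 0 weeks was 4.48-fold at 2 weeks and 6.05-fold at 10 weeks. Probe A_55_P2111302 was similar in this, with 7.23, 7.25 and 7.31, then 7.39, 7.73 and 7.58, then 9.43, 8.82 and 9.46, and finally 9.57, 9.54 and 9.16, and its late groups overlapped. In these probes the 1-week mean lay 0.32 and 0.30 above the 0-week mean. Among all 16 members, 5 had a higher and 11 a lower mean at 1 week than at 0 weeks.

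The 3 members with a polyadenylation hexamer were also lit. Probe A_55_P2059010 read 7.79, 8.22 and 8.21 at 0 weeks, 7.39, 8.07 and 7.70 at 1 week, 10.64, 10.19 and 10.79 at 2 weeks, then 9.38, 10.19 and 10.16 at 10 weeks. Probe A_51_P267783 read 5.24, 4.74 and 4.32, then 4.76, 4.64 and 4.25, then 6.64, 7.26 and 7.13, and finally 6.31, 7.54 and 6.92. Probe A_55_P2096422 read 5.06, 5.17 and 5.04, then 5.21, 5.88 and 5.58, then 7.11, 6.84 and 7.48, and finally 8.01, 8.58 and 7.72. The last of these had the largest positive step from 2 to 10 weeks of all members, 0.96, with every 10-week array above every 2-week array, and also the largest difference between 1 week and 0 weeks, 0.47. Its folds over 0 weeks were 4.31 at 2 weeks and 9.18 at 10 weeks.

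Probe A_55_P1979508 was the member nearest to the minimum difference of 1.5, through its 10-week mean. It read 5.17, 5.02 and 4.99 at 0 weeks, 4.96, 4.89 and 5.02 at 1 week, 6.97, 7.81 and 6.35 at 2 weeks, then 5.38, 5.90 and 8.47 at 10 weeks. Its early arrays were tightly grouped, with SDs of 0.09 and 0.06, while the late ones ranged over 1.47 and 3.09 log2 units. The lowest late array was 0.22 above the highest early one, which together with A_51_P460613 made 2 members with a gap under 0.5.

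Over all 16 members, the difference from 0 weeks had a median of 3.71 (range 1.97 to 8.49) at 2 weeks and of 3.31 (range 1.53 to 8.53) at 10 weeks on the deposited log2 scale. The corresponding medians over the 33184 tested catalogue probes were 0.03 and -0.07. At 0 weeks 9 members were detected on no array, so their differences rest on values that are only bounds. Between 2 and 10 weeks 6 members were higher and 10 lower in the mean, with a median of -0.18, against -0.12 for the tested catalogue probes. At 1 week the median difference was -0.10, against 0.03.

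The selection set no condition on the order of the 3 tumour arrays among themselves, and many members shared the same order. It did use the values of these arrays, so the shares below only describe the members. In 8 of the 16 members (50%) the third 10-week array was the highest and the first the lowest, an order found in 19.7% of the 33184 tested catalogue probes and in 21.1% of the 748 of them that ranged over more than 2 log2 units at 10 weeks. The 8 were A_55_P1998471, A_51_P256827, A_52_P259402, A_51_P391955, A_55_P2006261, A_51_P263568, A_51_P460613 and A_55_P1979508, of which all but the last were dark. In them the third array exceeded the mean of the other 2 by 1.62 to 4.05. In the other 8 members the same difference lay between -1.11 and 0.38.

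The deposited values had been given the same distribution on every array, so they do not show differences in overall array level. On that scale the median over the members was 6.51, 7.82 and 9.16 on 10-week replicates 1, 2 and 3, while the median over the tested catalogue probes was 6.80, 6.89 and 6.90. The share of probes well above background on these arrays was 44.4%, 40.8% and 42.3%, and its part in the order was not tested. A range of more than 2 log2 units at 10 weeks was found in 7 members (43.8%) and in 2.25% of tested catalogue probes. At 2 weeks it was found in 2 members (12.5%), A_51_P460613 and A_51_P499698, and in 2.21%. The catalogue shares cover all tested probes, raised or not, and the selection used the members' 2-week and 10-week values. These shares therefore only describe the members. No member had a range over 2 log2 units at 0 weeks or 1 week, where only 1.62% and 1.78% of tested catalogue probes did. The median SD of the members was 0.17, 0.34, 0.36 and 0.83 in order of time, against 0.19, 0.22, 0.19 and 0.23 for the tested catalogue probes. The early values of the dark members are mostly only bounds, so their early SDs cannot be compared with the later ones.

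At 2 weeks no order of the arrays was shared by as many members. Each of the 3 arrays was the highest in 5 or 6 members. The most frequent order, with replicate 3 highest and replicate 2 lowest, held in 5 members (31.2%), A_55_P2006261, A_55_P2059010, A_55_P2096422, A_51_P398971 and A_55_P2111302, and in 16.3% of tested catalogue probes. Another 4 members (25.0%) had replicate 1 highest and replicate 3 lowest, against 13.2%.

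Whether the tumour mean stayed within 1 of the 2-week mean rested on the third tumour array in 6 of those 8 members. Without it, the 10-week mean of A_51_P263568 was 5.10, and its difference from the 2-week mean was -2.32 in place of -0.97. The difference from 2 weeks became -2.07 for A_51_P460613, -1.95 for A_55_P2006261, -1.78 for A_52_P259402, -1.46 for A_51_P391955 and -1.40 for A_55_P1979508, all past the limit of 1. It was -0.50 for A_55_P1998471 and -0.40 for A_51_P256827, which stayed within it, while A_55_P2096422, outside those 8, moved to 1.15. Applied without that array, the thresholds selected 13 probes, of which 9 were among the 16.

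In a fit of all 12 arrays to 62413 probes on the scaled scanner signal (limma, Benjamini-Hochberg adjusted p below 0.05), 14 of the 16 members were called higher at 2 weeks than at 0 weeks, where 3.61% of all tested probes were. At 10 weeks against 0 weeks 15 were called higher, with 22.8% of all probes called, and at 2 weeks against 1 week 14 were, with 0.671% of all probes called. Since the members were chosen on these contrasts, the counts describe them only. The share of all calls that were higher, 68.7% for 10 weeks against 0 weeks, rested on the scaling, which placed the median of all tested probes at 0.23, and it lay between 33.7% and 50.5% under the other 5 scalings. Probe A_51_P460613 missed the threshold in all 3 comparisons, with a log2 difference from 0 weeks of 2.66 (SE 1.15) at 2 weeks and 2.20 (SE 1.15) at 10 weeks, and A_55_P1979508 missed it at 2 weeks against 0 weeks and against 1 week.

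No member was called between 1 week and 0 weeks by limma (0 also at an unadjusted p below 0.05, which 11230 of the 62413 probes reached), where 0.976% of all probes were called in either direction. Between 10 and 2 weeks 1 member was called, A_55_P2096422, with a log2 difference of 1.09 (SE 0.24) against a median of 0.27 over all tested probes, where 31.0% of all probes were called. Both contrasts were limited by the selection, and a missed threshold does not show that levels were equal.

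The members are a minority of what was higher at 2 weeks. Without any condition on 10 weeks, the thresholds selected 95 catalogue probes, with a median 2-week mean 2.56 above the higher early mean. At 10 weeks 16 of these 95 (16.8%) were the members, 15 were still at least 1.5 above both early groups but over 1 below their 2-week mean, and 9 were over 1 above it. Another 10 met the 1.5 limit in the mean only, with at least 1 tumour array inside the early range. The remaining 45 fell short of it, with 23 of them between 0.5 and 1.5 above the higher early mean, 13 within 0.5 of it and 9 more than 0.5 below.

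Seen from the tumour, 272 catalogue probes had a flat first week and were at least 1.5 above both early groups on separated arrays with a 10-week mean of at least 6, and 15 of these (5.51%) were members. The exception was A_51_P460613, whose 10-week mean was 5.60. The members just inside the limit of 1.5 were A_55_P1979508, A_55_P2096422 and A_55_P2111302, whose smaller difference was 1.526, 1.586 and 1.669. Just outside it lay A_52_P103628, A_52_P49797 and A_52_P257502, at 1.475, 1.393 and 1.371, which met all other thresholds.

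Tumour arrays had 40.8% to 44.4% of their probes well above background, and the other 9 arrays 33.3% to 40.1%. Each of the 6 slides held arrays of 1 time point only. The 2-week arrays shared 1 slide, and the 10-week arrays shared another that was scanned on a different day from all the rest, so slide and time point cannot be told apart for the late groups. Without gene names, markers of the colon and of its immune and stromal cells could not be looked up.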

How the data were processed

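Each array was hybridised with Cy3-labelled RNA, 1 sample per array. The authors used Agilent Feature Extraction 10.7.1.1 to read the intensity of each spot, per the file headers, and it subtracted background and detrended the processed signal. The authors also deposited a table of log2 values per probe. Its normalization is not given in the sources used here; all columns hold the same distribution (median 2.92), and each correlated with the log2 processed signal of its array at 0.9953 or more. Members were selected on that table, and the members and lists were chosen with earlier results of these data known.

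For the fit, spots marked as outliers were dropped (none of a member), and each array's log2 processed signal was reduced by its 75th percentile, taken over the 42364 probes detected on every array (the scanner's call of well above background). Tests covered the 62413 probes detected on 3 or more of the 12 arrays. Group means were fitted with limma 3.58.1 in R 4.3.3, with Benjamini-Hochberg adjustment over all tested probes; the procedure was tested on simulated data. The 3 arrays per group limit the precision.

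The rule for named probes took the 15 members with the largest rise and the 3 probes nearest to the threshold of 1.5 on each side, and asked for gene matches through a protein or transcript table, which was not used here, so all 16 members are named by probe ID, and the gene and marker lists were not used. That rule also limited printed sequences to probes matched within coding sequence. As no match was made, 30 of 60 bases are given instead, for most members. Same-numbered replicates were not paired: 1 of 18 same-number pairs of arrays correlated above 0.1 in their deviations from the group means (range -0.0989 to 0.191).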

Additional observations from a re-analysis of the deposited data

How the results depend on the processing

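The counts of members called higher at 2 weeks against 0 weeks (11 to 15), at 10 weeks against 0 weeks (12 to 15) and at 2 weeks against 1 week (10 to 15), and the count of 0 at 1 week, stayed within 1.5 times their reported values under every setting tried. For 10 weeks against 0 weeks the share of all probes called higher was 10.9% with the percentile over all probes and 13.9% in the deposited log2 values, in place of 22.8%. The 1 member called between 10 and 2 weeks became 2 with the percentile over all probes, quantile normalization or the deposited log2 values, 3 with cyclic loess, and 4 with normexp or with the slide as a random block, an alternative chosen after seeing the data. That block cannot separate slide from time point, since each slide held 1 time point, and with it 39.7% of all probes were called. Leaving out 1 array gave 1 to 3. On the scaled scanner signal the median member change from 0 weeks was 3.84 at 2 weeks and 3.54 at 10 weeks, against 3.71 and 3.31 in the deposited values. With normexp it fell to 1.74 and 1.70. The offset of 50 used there shrinks differences from dim signals. Normexp also started from the mean signal and the local background in place of the processed signal, and the part of each was not tested. Between 10 and 2 weeks the median member change on the scaled scanner signal was -0.06. It ranged from -0.52 to 0.30 when 1 array was left out, so its sign rested on single arrays. With the replicate number as a block, 14, 14 and 13 members were called higher in the first 3 comparisons, 0 at 1 week and 1 between 10 and 2 weeks.

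The selection gave 42 probes with a minimum difference of 1 and 10 with a minimum of 2, in place of 16. Applied to other scalings, with the level of 6 moved to the same rank, it gave 14 to 20 probes, of which 7 (normexp) to 15 (quantile normalization) were members; 5 members were kept under all 5 scalings. Leaving out 1 array gave 13 to 22 probes, and 5 members were kept in all 12 cases. The planned fixed block by slide, which needs slides that hold more than 1 group, and the length of a protein match were not run, because each slide held 1 group and no protein table was used.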
